A study of Rattus norvegicus with 12 samples.

Results

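Csf1r, C1qc, P2ry12 and Cd14, 4 genes that microglia and other macrophages express, were followed through 12 RNA-seq libraries of cultured rat oligodendrocyte precursor cells (OPCs), as a measure of the myeloid cells left in the cultures and of their response. They are 4 of the 13348 genes with enough counts to be tested. The count tables name genes by Ensembl identifier alone. The members were therefore found through their symbols in the list of differentially expressed genes that accompanies the study, whose mean normalized count was matched to a single gene for 1783 of 1786 entries. That list holds genes called in CTK-2 versus CTL, and a gene outside it has no symbol here. Each gene named below by symbol was thus already known to differ in that comparison, which is therefore given as a description only.

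The cultures came from the cortices of newborn Sprague-Dawley pups of both sexes, and the mixed glial flasks were shaken to detach microglia before the OPCs were collected. Staining for GFAP and Iba1 is described for a single preparation. Its outcome is reported by the study and is not part of the data used here. Whether any sequenced library came from that preparation is not stated. All groups were kept in pro-differentiating medium. CTL received vehicle (DMSO), and GAL received 10 nM galinex, an agonist of the receptor GPR17. CTK-2 received IFN-γ, TNF-α and IL-1β (2 ng/mL of each), followed 6 h later by vehicle, and CTK2+GAL received the same cytokines followed 6 h later by 10 nM galinex. RNA was collected 24 h after galinex or vehicle in 3 libraries per group. Nothing in the sources used here says that these were separate preparations, so p-values measure the spread between libraries, which may be technical. Library totals lay between 2600797 counts in GAL replicate 1 and 8978185 in CTK2+GAL replicate 3.

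Microglia are the resident macrophages of the brain. They depend on signals through the CSF1 receptor, express the complement protein C1q and the ADP receptor P2Y12 at rest, and respond to microbial products and cytokines with genes such as Cd14. In mixed glial cultures they grow on the astrocyte layer together with OPCs, and some can be carried over when the precursors are shaken off. Not every such gene is restricted to myeloid cells, since P2Y12 has also been described in oligodendrocytes. In a bulk RNA library, more cells of a type and more RNA of a gene per cell cannot be told apart.

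CTL replicate 3 and GAL replicate 3 stood apart from the other libraries without cytokines. The 15 microglial genes with a symbol, taken from 3 lists of markers, summed to 6.53, 8.73 and 47.8 CPM (counts relative to the TMM-normalized library size) in CTL replicates 1, 2 and 3. In GAL the same sum was 6.59, 8.53 and 47.0 CPM, and in the 6 libraries with cytokines it lay between 420 and 473 CPM. Irf8 was the most abundant of these genes over the 12 libraries together. It supplied 62.4% of the sum pooled over them, a share set mainly by the libraries with cytokines. Irf8 had 22.8 CPM in CTL replicate 3 and 21.8 in GAL replicate 3, against 0.397 or less in the other 4 libraries without cytokines. Without Irf8, CTL replicate 3 and GAL replicate 3 still reached 24.9 and 25.2 CPM, against 8.36 or less in those 4. Of the 15 genes, 14 were highest in replicate 3 within CTL and 14 within GAL, whereas replicate 3 was the highest in 34.8% of all tested genes in CTL and in 33.6% in GAL, and in 45.0% and 41.2% of the tested genes with a symbol. The genes with a symbol include genes lowered by cytokines, and the share among those raised, as all 15 were, was not computed. Replicate 3 of CTL and of GAL was also highest for 5 of 5 complement genes with a symbol, C1qc included. It was highest for 0 of 2 astrocyte genes. Group means below include CTL replicate 3 and GAL replicate 3, and several fold changes of the members are also given without them.

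Csf1r encodes the receptor tyrosine kinase for CSF1 and IL-34, on which microglia depend for survival (ENSRNOG00000018414, chromosome 18 from 54546659 to 54590415, coordinates of the rat build mRatBN7.2). It had 3, 2 and 13 counts in the CTL libraries, 4, 4 and 18 in GAL, 25, 16 and 13 in CTK-2, and 8, 22 and 25 in CTK2+GAL. These counts correspond to 0.515, 0.397 and 2.10 CPM in CTL, 1.55, 0.669 and 3.09 in GAL, 5.22, 2.90 and 2.40 in CTK-2, and 1.55, 3.90 and 2.77 in CTK2+GAL. The highest library in CTL and in GAL was replicate 3, and GAL replicate 3 lay above 2 of the 3 CTK2+GAL libraries, so these groups overlapped. Group means were 1.01 ± 0.954 CPM in CTL, 1.77 ± 1.23 in GAL, 3.51 ± 1.5 in CTK-2 and 2.74 ± 1.17 in CTK2+GAL (SD, n = 3).

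C1qc encodes the C chain of C1q, the recognition molecule of the classical complement pathway (ENSRNOG00000012804, chromosome 5 from 149127415 to 149131017). It had 2, 4 and 13 counts in CTL, 1, 4 and 19 in GAL, 24, 24 and 22 in CTK-2, and 29, 25 and 55 in CTK2+GAL. The matching levels were 0.344, 0.794 and 2.10 CPM in CTL, 0.387, 0.669 and 3.26 in GAL, 5.01, 4.35 and 4.07 in CTK-2, and 5.63, 4.43 and 6.08 in CTK2+GAL. Every library with cytokines lay above every library without them, and replicate 3 was again the highest in CTL and in GAL. The spread was wide without cytokines, with means of 1.08 ± 0.915 CPM in CTL and 1.44 ± 1.58 in GAL, and narrow with them, at 4.48 ± 0.483 in CTK-2 and 5.38 ± 0.854 in CTK2+GAL (SD, n = 3).

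P2ry12 encodes an ADP receptor that guides microglial processes to sites of injury and marks resting microglia (ENSRNOG00000013902, chromosome 2 from 143481430 to 143523361). It had 7, 16 and 28 counts in CTL, 3, 11 and 18 in GAL, 52, 51 and 53 in CTK-2, and 53, 57 and 85 in CTK2+GAL. As levels these were 1.2, 3.18 and 4.53 CPM in CTL, 1.16, 1.84 and 3.09 in GAL, 10.9, 9.25 and 9.80 in CTK-2, and 10.3, 10.1 and 9.40 in CTK2+GAL. P2ry12 was counted in all 12 libraries and again separated the 6 libraries with cytokines from the 6 without. The highest CTK2+GAL library was 1.09 times the lowest, against 2.66 times in GAL. Means were 2.97 ± 1.67 CPM in CTL, 2.03 ± 0.978 in GAL, 9.97 ± 0.816 in CTK-2 and 9.93 ± 0.467 in CTK2+GAL (SD, n = 3).

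Cd14 encodes the surface protein that passes bacterial lipopolysaccharide to TLR4 on monocytes, macrophages and microglia (ENSRNOG00000017819, chromosome 18 from 28335340 to 28337261). It had 1, 1 and 0 counts in CTL, 0 in each GAL library, 22, 19 and 15 in CTK-2, and 6, 20 and 29 in CTK2+GAL. Cd14 was the only member without a count in CTL replicate 3 and GAL replicate 3, the libraries with 13 and 18 counts of Csf1r. In CTK-2 replicate 3, which also had 13 counts of Csf1r, Cd14 had 15. Among the libraries with cytokines CTK2+GAL replicate 1 was the lowest, at 1.16 CPM beside 3.55 and 3.21 CPM in the other CTK2+GAL libraries, and it was the lowest of this group for Csf1r as well. The mean was 3.61 ± 0.920 CPM in CTK-2 and 2.64 ± 1.29 in CTK2+GAL (SD, n = 3).

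**Figure D1:**
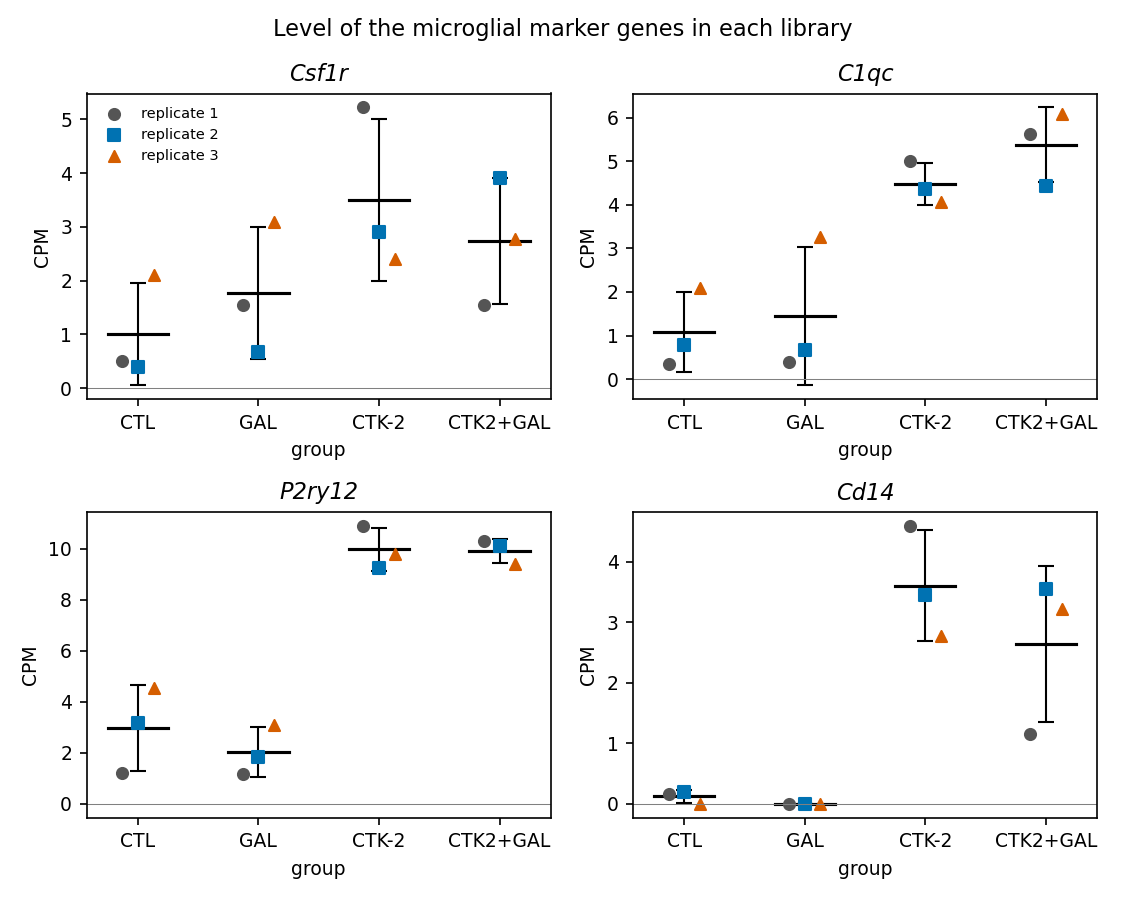
Level of Csf1r, C1qc, P2ry12 and Cd14 in CPM (vertical axes, linear) in each of the 12 libraries, by group on the horizontal axes; symbols mark the replicate number, horizontal lines the group mean and bars 1 SD (n = 3). Replicate 3 is the highest CTL and GAL library for Csf1r, C1qc and P2ry12, while Cd14 has 0 counts in both.

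The cytokine response was tested in CTK2+GAL versus GAL, whose contrast is not the one that gave the symbols. Of the 4 members, P2ry12, C1qc and Cd14 were called higher in CTK2+GAL and Csf1r was not called, where 11.7% of all 13348 tested genes were called higher (edgeR's quasi-likelihood test; a call needs a log2 fold change of 0.59 or more in size and a Benjamini-Hochberg adjusted p up to 0.05). Among the 1538 genes that the same edgeR fit called higher in CTK-2 versus CTL, 83.9% were called higher in CTK2+GAL versus GAL. The members are among these genes but were found through the study's own list, which is not the same set. The share among the genes of that list was not computed. A count of 3 in 4 is near that share and is not a result about these genes. The 3 CTK2+GAL libraries lay above every GAL library for the same 3 members, and for 25.5% of all tested genes. All 4 members passed the filter of a mean count of at least 5, but Cd14 averaged 0.333 counts without cytokines and 18.5 with them, and passed only through the groups where it was high. Of the 3 members that also averaged 5 or more counts without cytokines, C1qc and P2ry12 were called. Csf1r, C1qc and P2ry12 averaged 7.33, 7.17 and 13.8 counts in the 6 libraries without cytokines.

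P2ry12 rose 4.43-fold and was higher in 3 of 3 libraries (log2 fold change 2.15, standard error 0.315; edgeR's quasi-likelihood test, Benjamini-Hochberg adjusted p = 2.36e-05). The 95% interval of that fold, taken as 1.96 standard errors each way on the log2 scale, ran from 2.89 to 6.79, and without GAL replicate 3 the log2 fold change was 2.58. C1qc rose 3.27-fold and was likewise higher in 3 of 3 libraries (log2 fold change 1.71, standard error 0.452; edgeR's quasi-likelihood test, Benjamini-Hochberg adjusted p = 0.0055). Without GAL replicate 2 the same edgeR quasi-likelihood test gave C1qc a Benjamini-Hochberg adjusted p of 0.053 at a log2 fold change of 1.23, and without GAL replicate 3 the log2 fold change was 3.18. Over its 15 alternatives that p ran from 2.05e-06 to 0.053. Cd14 had 55 counts in CTK2+GAL and 0 in GAL, at least 13.3-fold higher than the 3 counts over the group that a count of 0 allows.

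Csf1r changed 1.53-fold in CTK2+GAL versus GAL and was not called (log2 fold change 0.61, standard error 0.532; edgeR's quasi-likelihood test, Benjamini-Hochberg adjusted p = 0.396). The interval of its fold ran from 0.741 to 3.15, so a small decrease and a 3-fold increase both lie inside it. All 3 CTK2+GAL libraries lay at or above the median GAL library, and only CTK2+GAL replicate 2 lay above GAL replicate 3. The estimate leaned on GAL: it was 0.10 without GAL replicate 2 and 1.53 without GAL replicate 3, where it was still not called (edgeR's quasi-likelihood test, Benjamini-Hochberg adjusted p = 0.0836, within a range from 0.0297 to 0.912 over 15 alternatives). Only when CTL replicate 3, which is not in this comparison but enters the common fit, was left out too, a choice made after seeing the data, was Csf1r called, which made 4 of 4 members (log2 fold change 1.53; edgeR's quasi-likelihood test, Benjamini-Hochberg adjusted p = 0.0297). The difference between Csf1r and the other members in their response was not tested.

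In CTK-2 versus CTL, from which the symbols came, all 4 members were higher, beside 11.5% of all tested genes, and nothing is read from that count. The fitted log2 fold changes were 1.73 for P2ry12, 1.98 for C1qc and 1.70 for Csf1r. Without CTL replicate 3 they were 2.22, 2.96 and 2.85 in that order. Csf1r lost its call without CTL replicate 1, CTL replicate 2 or CTK-2 replicate 1, at log2 fold changes of 1.364, 1.361 and 1.32. For Cd14, 56 counts in CTK-2 stood against 2 in CTL, and with library size taken into account their ratio was 30.4 (95% counting interval from 8.02 to 257). Floors and counting intervals cover counting error only. The interaction of cytokines and galinex tests whether the cytokine responses with and without galinex differed, and 0 of 4 members were called in it, as were 0% of all tested genes (edgeR, with 376 genes at an unadjusted p under 0.05 and 0 genes called by DESeq2). Its log2 value was -1.08 for Csf1r (standard error 0.801), -0.27 for C1qc (standard error 0.715) and 0.42 for P2ry12 (standard error 0.46). All 3 values moved with single libraries and most with replicate 3, being -2.24, -1.25 and -0.07 without that CTL library, -0.16, 1.197 and 0.86 without that GAL library, and -1.32, 0.22 and 0.37 without both. Without CTL replicate 1 they were -0.76, 0.16 and 0.80, and without GAL replicate 2 -1.59, -0.76 and 0.26. For Cd14 the interaction rests on CTL and GAL counts at or under the floor and no value is given.

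**Figure D2:**
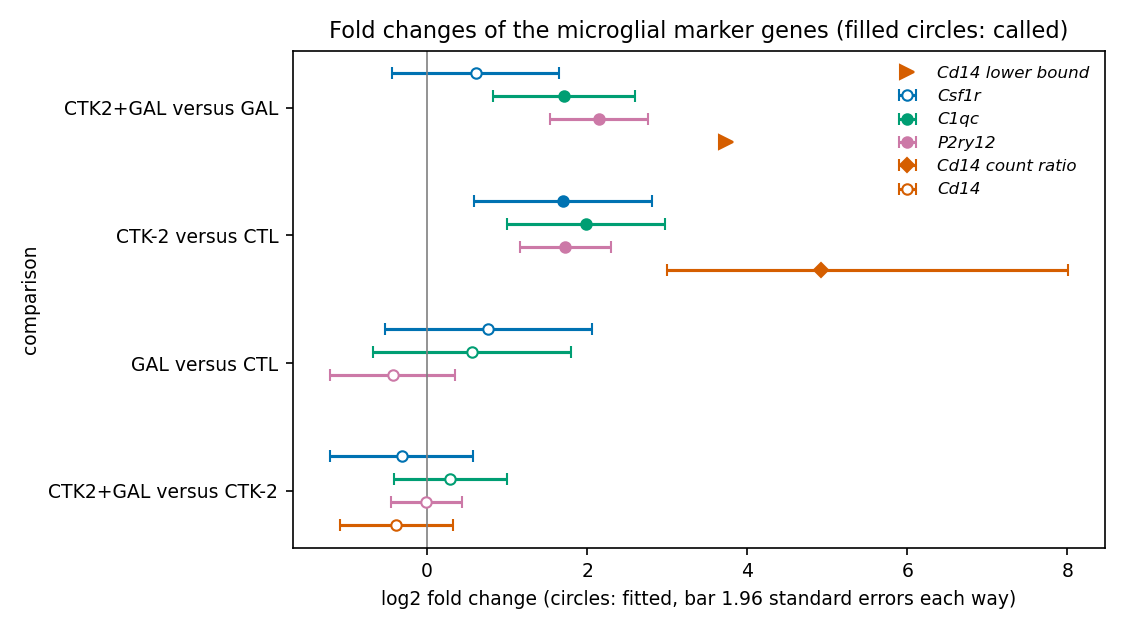
Log2 fold change (horizontal axis) of each member in the 4 comparisons of groups (vertical axis); circles are fitted values with 1.96 standard errors each way, filled where called, the triangle is the lower bound of Cd14 at 3 counts and the diamond its count ratio with the 95% counting interval. The intervals of P2ry12 and C1qc lie above 0 in both cytokine comparisons, that of Csf1r spans 0 in CTK2+GAL versus GAL, and all intervals drawn for galinex span 0.

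Galinex was compared with vehicle at both cytokine states. In GAL versus CTL 0 of 4 members were called, and 0% of all tested genes (edgeR, with 574 genes at an unadjusted p under 0.05 and 0 called by DESeq2). The fold of P2ry12 was 0.742 with a 95% interval from 0.431 to 1.28, that of C1qc 1.48 with an interval from 0.629 to 3.46, and that of Csf1r 1.70 with an interval from 0.694 to 4.17. Between libraries of the same number, Csf1r was higher in GAL in 3 of 3, C1qc in 2 of 3 and P2ry12 in 0 of 3. Some differences were small, as for P2ry12 in replicate 1, at 1.2 CPM in CTL and 1.16 in GAL. The share over all tested genes was not computed, and nothing is read from these counts. Without replicate 3 of both groups the log2 fold changes of Csf1r, C1qc and P2ry12 were 0.998, 0.07 and -0.38. Leaving out replicate 3 of a single group gave 1.92, 1.54 and 0.06 without the CTL library and -0.15, -0.91 and -0.87 without the GAL library. Cd14 was at 2 counts in CTL and 0 in GAL, both under the floor of 3 counts. In CTK2+GAL versus CTK-2 again 0 of 4 members and 0% of all tested genes were called (edgeR, with 545 genes at an unadjusted p under 0.05 and 0 called by DESeq2). With cytokines the intervals were narrower, from 0.729 to 1.35 for P2ry12 around a fold of 0.993, from 0.748 to 1.99 for C1qc around 1.22, from 0.432 to 1.49 for Csf1r around 0.802, and from 0.470 to 1.25 for Cd14 around 0.767. A change of P2ry12 by galinex inside that interval was not resolved by these libraries.

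Levels of different genes were compared as CPM per kilobase of annotated exon. In CTK-2 the order was P2ry12 at 3.21 ± 0.263, C1qc at 2.80 ± 0.303, Cd14 at 1.97 ± 0.502 and Csf1r at 0.765 ± 0.328 CPM per kilobase (SD, n = 3). The ranges of P2ry12 and C1qc over the CTK-2 libraries overlapped, from 2.98 to 3.50 and from 2.55 to 3.14, and neither overlapped that of Cd14 or Csf1r. In CTK2+GAL C1qc came first at 3.37 ± 0.535 and P2ry12 next at 3.20 ± 0.151, again with overlapping ranges, followed by Cd14 at 1.44 ± 0.704 and Csf1r at 0.597 ± 0.256 CPM per kilobase (SD, n = 3). In CTL the order was P2ry12, C1qc, Csf1r and Cd14, at 0.957, 0.677, 0.219 and 0.0674 CPM per kilobase. GAL replicate 3 was the only library without cytokines in which C1qc stood above P2ry12, at 2.04 against 0.995 CPM per kilobase. The ranges of Cd14 and Csf1r overlapped in CTK2+GAL, from 0.636 to 1.94 and from 0.339 to 0.850, and not in CTK-2. Cd14 moved from the lowest mean level in CTL and GAL to a mean above that of Csf1r in both groups with cytokines.

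The members belong to lists of markers of which few genes have a symbol here, and each such gene comes from the study's own calls on these libraries, so the counts are not independent evidence of a direction. Of 17 defining genes of microglia and macrophages 5 have one, and in CTK2+GAL versus GAL 4 of them (C1qc, Spi1, Ptprc and Irf8) were called higher and Csf1r was not, with a median log2 fold change of 2.41. Spi1, which encodes the myeloid transcription factor PU.1, and Ptprc, the pan-leukocyte antigen CD45, had 0 and 1 counts in CTL replicate 1, 0 and 0 in CTL replicate 2, and 7 and 6 in CTL replicate 3. In GAL replicates 1 and 2 both were at 0, and in GAL replicate 3 they had 1 and 6. Irf8 is a transcription factor of myeloid cells that IFN-γ also induces in other cell types. Summed over all 12 libraries, it made up 94.9% of the level of these 5 genes. In CTL replicates 1 and 3 it had 0.172 of 1.2 CPM and 22.8 of 29.1 CPM. In GAL replicates 1 and 3 it had 0 of 1.94 CPM and 21.8 of 29.3 CPM. The 2 of 12 genes of resting microglia with a symbol, P2ry12 and P2ry13, were both called higher, and so were all 8 of the 21 genes of activated microglia that have one, with medians of 1.96 and 3.76 (3.59 with Cd14 at its bound). The median over all tested genes was near 0. In total 14 of 15 microglial genes were called higher, and 15 of 15 without CTL replicate 3 and GAL replicate 3. The count was 11 without GAL replicate 2 and 13 with DESeq2. Of these 15 genes 7 (Cd14, Spi1, Ptprc, P2ry13, Tlr2, Il1b and Fcgr3a) averaged under 5 counts without cytokines and passed the filter only through the groups with them. All these counts stand beside the 83.9% given above for genes called higher in CTK-2 versus CTL, and are not results about the lists.

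**Figure D3:**
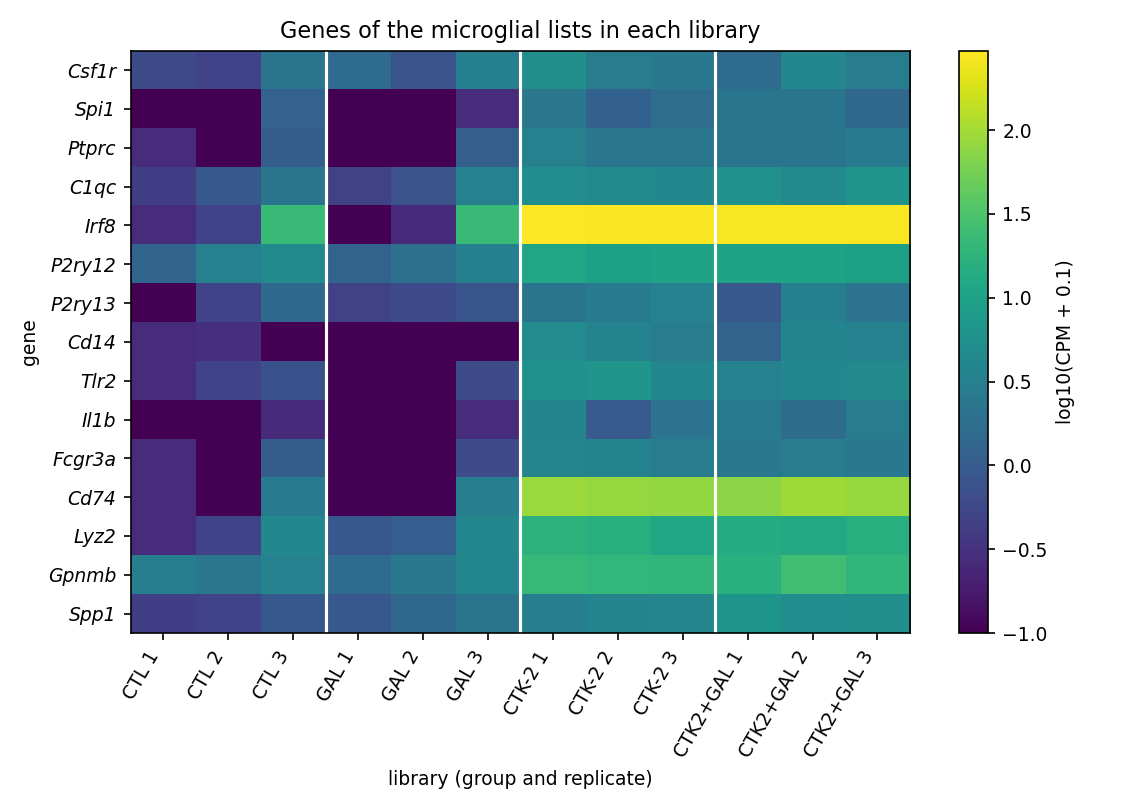
Colour shows log10(CPM + 0.1) of the 15 genes of the microglial lists that have a symbol (rows) in each library (columns, white lines between groups). CTL replicate 3 and GAL replicate 3 are brighter than replicates 1 and 2 for most rows but not for Cd14, which has 0 counts in both.

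Markers of other cell types moved in the same comparison, and their part in the members' levels was not tested. No gene on the lists of border macrophages and of other leukocytes has a symbol here. Of 9 OPC markers 4 have one, and Pdgfra, Cspg4 and Ptprz1 were called higher and Vcan lower in CTK2+GAL versus GAL. The sum of these 4 was 3996 to 4385 CPM without cytokines and 4852 to 5178 CPM with them. The oligodendrocyte markers Mog, Mag and Cldn11 and the astrocyte markers Aldoc and Fgfr3 were called lower. Col1a2 of fibroblasts, Kdr of endothelial cells and Tubb3 of neurons, the single genes with a symbol on their lists, were called higher. Of 9 astrocyte markers only Aldoc and Fgfr3 have a symbol. Their sum was 354, 387 and 305 CPM in CTL replicates 1, 2 and 3, and 372, 354 and 307 CPM in GAL. Both were called lower with cytokines, so a low sum cannot tell fewer astrocytes from less RNA of these genes per cell.

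Around Csf1r, genes of its pathway with a symbol were followed as well. Its ligand Csf1 had 24.7, 28.6 and 90.5 CPM in CTL and 25.6, 23.4 and 83.6 CPM in GAL, so replicate 3 was again the highest in both groups. With cytokines Csf1 stood at 226 ± 11.0 CPM in CTK-2 and 213 ± 4.89 in CTK2+GAL (SD, n = 3), and it was called higher in CTK2+GAL versus GAL (log2 fold change 2.19, standard error 0.375). Spi1, Irf8, Runx1 and Cebpb were called higher too, of which Spi1 and Runx1 passed the filter only through the groups with cytokines, and Csf1r itself was not called. These calls too stand beside that 83.9% and are not a result about the pathway.

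C1q acts with the proteases C1r and C1s, of which C1s cleaves C4 and then C2, while Serping1 encodes the inhibitor of C1. All 5 of the 19 listed complement genes with a symbol, C1qc included, were called higher in CTK2+GAL versus GAL, with a median log2 fold change of 5.32, beside 83.9% of all genes called higher in CTK-2 versus CTL. Serping1 passed the filter only through the groups with cytokines. The log2 fold change was 5.17 for C1r (SE 0.344) and 5.32 for C1s (SE 0.377), and a difference from C1qc was not tested. C1r had 1, 2 and 27 counts in CTL and 4, 2 and 26 in GAL, the same split between replicates as C1qc.

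Cd14 stands beside 3 other genes with a symbol on the list of 16 genes of the toll-like receptor system, and all 4 were called higher in CTK2+GAL versus GAL, again beside that 83.9%. Like Cd14, Tlr2 and Tlr3 passed the filter only through the groups with cytokines. Tlr2, the receptor for bacterial lipoproteins, had 3 counts in GAL and 77 in CTK2+GAL, a ratio of 18.6 with a 95% counting interval from 6.14 to 92.3. Tlr3, the receptor for double-stranded RNA, had 2 and 56 counts, a ratio of 20.3 with an interval from 5.37 to 172. Both ratios lay above the bound of at least 13.3-fold for Cd14, which does not order the genes. Myd88, the adaptor of most of these receptors, was called as well (log2 fold change 1.63, standard error 0.321).

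P2ry12 is 1 of 3 P2Y receptor genes with a symbol on a list of 12. P2ry13, another ADP receptor of microglia, had 1, 3 and 4 counts in GAL and 4, 17 and 18 in CTK2+GAL, and was called higher (log2 fold change 1.78, standard error 0.675). P2ry1, an ADP receptor found in many cell types, had its higher levels without cytokines, at 16.1 ± 2.42 CPM in GAL and 8.17 ± 1.75 in CTK2+GAL (SD, n = 3), and was called lower. The summed level of the 3 genes therefore hardly separated the groups, with 17.4 to 21.6 CPM without cytokines and 17.3 to 22.9 with them.

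P2ry13 is also a neighbour of P2ry12, 7996 bases away on the same strand of chromosome 2, and Igsf10 on that strand, 52709 bases away, was called higher as well (log2 fold change 1.36, standard error 0.123). One gene without a symbol here overlaps P2ry12 on the other strand, and the strand was used in counting. C1qc has an annotated gene on either side within 10 kb, neither with a symbol here and both on its strand. ENSRNOG00000012749, 3008 bases away, had 1, 3 and 16 counts in CTL and 0, 2 and 11 in GAL, and was called higher in CTK2+GAL versus GAL (log2 fold change 2.03, standard error 0.62). ENSRNOG00000012807, 2619 bases away, had 3, 5 and 11 counts in CTL and 0, 0 and 13 in GAL, and was not called (log2 fold change 1.44, standard error 0.689). Both were highest in replicate 3 of CTL and of GAL, as was C1qc. Ephb2, 50356 bases away on the same strand, was not called (log2 fold change 0.56, standard error 0.0741). None of the 6 genes within 100 kb of Csf1r has a symbol, and of 17 around Cd14 only Apbb3 has one, which was not called (log2 fold change 0.54, standard error 0.118).

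Patterns across the 12 libraries were compared by Pearson's r of log2 CPM, as a description over the 1782 other tested genes with a symbol. The libraries fall into 6 with and 6 without cytokines, so most such genes, chosen for that contrast, correlate: the median r was 0.869 with Cd14, 0.852 with P2ry12, 0.795 with C1qc and 0.625 with Csf1r. Among named genes, those most like each member were Nfe2l2 and Ccl7 for Cd14 (r = 0.985 and 0.978), Cgrrf1 and C1s for P2ry12 (0.981 and 0.978), B2m and Parp14 for C1qc (0.982 and 0.981), and Lamb2 for Csf1r (0.91). After each group's mean was taken away, so that only differences between replicates were left, the median r fell to between -0.0957 and 0.154. C1qc and P2ry12 then correlated with each other at r = 0.884, C1qc and Csf1r at 0.659 and P2ry12 and Csf1r at 0.523. Cd14 had r = -0.214 with C1qc, -0.209 with P2ry12 and 0.198 with Csf1r. The genes closest to C1qc between replicates were Ifi44, Parp14, Ogfr and Mx2 (r from 0.973 to 0.96, 78 genes above 0.9), of which Ifi44, Parp14 and Mx2 are known as interferon-stimulated genes. Those closest to P2ry12 were Vwa5a and Ogfr (0.947 and 0.938), to Csf1r Nfkb2 and Cadps2 (0.901 and 0.89), and to Cd14 Spryd7 and Pradc1 (0.866 and 0.864), and for Cd14 no gene was above 0.9. These values rest on 12 libraries, and how far CTL replicate 3 and GAL replicate 3 carry them was not tested.

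Csf1r and Cd14 both lie on chromosome 18, and their promoters are shown as those of the only members for which a sequence was given. For these 2 of the 4 members RefSeq sequences of the 250 bases before the annotated start were at hand (build GRCr8, whose coordinates differ from those of the count tables), at chr18:56834129-56834378 on the plus strand for Csf1r and chr18:28611159-28611408 on the minus strand for Cd14. Capitals mark GAGGAA and GGGGAA, both of which hold the GGAA core that PU.1 and other ETS factors recognize, on either strand.
Csf1r: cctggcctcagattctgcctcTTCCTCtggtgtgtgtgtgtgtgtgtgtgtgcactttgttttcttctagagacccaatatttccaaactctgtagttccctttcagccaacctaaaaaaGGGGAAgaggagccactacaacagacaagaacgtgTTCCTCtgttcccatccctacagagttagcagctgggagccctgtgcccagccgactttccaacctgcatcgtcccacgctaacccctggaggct
Cd14: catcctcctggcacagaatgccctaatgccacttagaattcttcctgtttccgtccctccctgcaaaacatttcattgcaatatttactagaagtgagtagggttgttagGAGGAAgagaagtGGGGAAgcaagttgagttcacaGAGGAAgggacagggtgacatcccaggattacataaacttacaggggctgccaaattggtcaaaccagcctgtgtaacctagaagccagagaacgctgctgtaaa
Each promoter held GAGGAA at 2 places and GGGGAA at 1, without overlap, where 23.3% and 20.0% of 33469 promoters of this length held at least 1 match. Neither held TTCNNNGAA, the form bound by STAT dimers (7.67% of promoters), the κB consensus (3.54%), TGANTCA of AP-1 (6.34%) or TATAAA (12.9%). A match is a description of these letters, and their absence says nothing of the factors.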

How the data were processed

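The authors deposited whole read pair counts per gene for 12 libraries, not normalized. The authors name FastQC, STAR and DESeq2, and per the file headers featureCounts 2.0.0 counted stranded pairs over Ensembl exons (build mRatBN7.2), leaving out pairs with several hits and marked duplicates.

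Tests used edgeR 4.0.16 in R 4.3.3, with DESeq2 1.42.0 as an alternative. The filter kept genes averaging 5 counts or more over the 12 libraries, TMM set the library sizes and the model had 1 mean per group, and the standard error is the absolute log2 fold change over the square root of F. The calls were tested on simulated data.

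Members were matched by mean normalized count. As a check, 749 of 750 matched entries held out from the estimate of the size factors lay on their RefSeq chromosome. C1qc had 3 candidate genes and was settled by its chromosome. The authors' means span all 12 libraries, so GAL and CTK2+GAL entered their normalization and probably their dispersion, though not the contrast. Members and lists were chosen with earlier results of these data known. Named genes follow a rule: the members, up to 5 genes of each list by mean count and up to 5 called, neighbours within 100 kb, and the most alike genes. Some results on the lists are withheld and not reported here.

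Same-numbered CTL and GAL libraries deviated together (r = 0.258, 0.26 and 0.596 for replicates 1, 2 and 3). Deviations were taken from the group mean, so a shared departure of replicate 3 also raises r for replicates 1 and 2. Libraries of unlike number were not correlated, so these values do not establish a pairing by number. Same-numbered libraries of the other groups did not deviate together in this way.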

Additional observations from a re-analysis of the deposited data

How the results depend on the processing

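Alternatives changed the tool (DESeq2), the scaling (DESeq2 size factors in edgeR, total counts), the filter (no filter on low counts, filterByExpr), the model (only the 2 groups compared, a replicate block) or the call (no fold change threshold), or left out a single replicate at a time. A replicate block within CTL and GAL alone, the exclusion of CTL replicate 3 and GAL replicate 3, and most alternatives for the count of microglial genes were added after seeing the data. In CTK2+GAL versus GAL 3 members were called in all but 2 of 15 alternatives, with 2 without GAL replicate 2, where C1qc lost its call, and 4 without CTL replicate 3 and GAL replicate 3, where Csf1r gained one. P2ry12 and Cd14 kept their calls in all 15. In CTK-2 versus CTL the count was 3 or 4, and Csf1r lost its call without CTL replicate 1, CTL replicate 2 or CTK-2 replicate 1. The galinex comparisons and the interaction gave 0 members throughout, with log2 fold changes in GAL versus CTL from -0.15 to 1.92 for Csf1r and from -0.91 to 1.54 for C1qc. Over all genes 0 calls became 2 (no filter) and 4 (without CTL replicate 3 and GAL replicate 3) in GAL versus CTL, and 4 and 6 in the interaction. The count of 14 microglial genes ran from 11 to 15. The replicate block changed no call of a member, with 3 called in CTK2+GAL versus GAL and a log2 fold change of 1.71 for C1qc, and left 0 calls in GAL versus CTL in both forms. For groups other than CTL and GAL the correlations of same-numbered libraries were under 0.1. A match by symbol to RefSeq was not run, since that table pairs no Ensembl identifiers. Depth limits Cd14, Csf1r and C1qc without cytokines most, at 0 to 19 counts per library.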
